A study of Mus musculus with 6 samples.

Results

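The genes examined were those of the laminins and of the proteins that link them into the basement membrane: the laminin alpha chains Lama2, Lama4 and Lama5, the beta chains Lamb1 and Lamb2, the gamma chain Lamc1, the nidogens Nid1 and Nid2, and the heparan sulfate proteoglycans Hspg2 (perlecan) and Agrn (agrin). The members were chosen by symbol, and each of the 10 was found in a single row of the deposited table, out of 36870 distinct symbols. BMMSCs, bone marrow mesenchymal stem cells cultured from C57BL/6 mice, were compared in 3 control libraries and 3 libraries of cells given siRNAs against Tet1 and Tet2 in combination. The sample labels give passage 2 for all 6 libraries and a non-targeting siRNA for the controls, whereas the methods name passage 1 and give non-targeting siRNA as the negative control, and call the control of the RNA-seq vehicle. Neither source says whether the libraries of a group came from separate cultures or animals, so p-values measure only the spread between these libraries, which may be technical.

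Laminins are heterotrimers of an alpha, a beta and a gamma chain, assembled in the endoplasmic reticulum and secreted to polymerize on cell surfaces. The alpha chain carries the domains bound by integrins and dystroglycan, and the gamma chain Lamc1, shared by most laminins, carries the site at which nidogen binds. Nidogens bridge the laminin polymer to the network of type IV collagen, perlecan adds heparan sulfate chains that hold growth factors, and agrin ties laminin to dystroglycan. In bone marrow, laminins containing Lama4 and Lama5 are known from the basement membranes of vessels, and stromal cells in culture also make laminin chains.

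The targets and the make-up of the culture were examined before the members. Control replicates 1 to 3 gave 2.57, 4.08 and 3.71 RPKM for Tet2, against 0.358, 0.238 and 0.202 RPKM with siRNA. RPKM is the number of reads on a gene per kilobase of its length and scaled to the mapped reads of the library, as the authors deposited it. Tet1 was at 0.032, 0.098 and 0.05 RPKM in the controls and 0.001, 0.01 and 0.001 RPKM after siRNA, where 0.001 is the lowest value listed. The control libraries held about 32400000 to 37500000 reads and the siRNA libraries about 35500000 to 38500000, as estimated from the steps of low RPKM values. Of 18 stromal marker genes tested with limma, 15 were lower and 1 was higher (Vcam1) after siRNA with an adjusted p under 0.05. By that threshold 29.8% of all genes tested were lower and 14.7% higher. The summed RPKM of the stromal list was between 1311 and 1854 in the controls and between 226.3 and 394.0 in the siRNA libraries. The stromal markers Thy1, Lepr and Lum were at or below 0.146 RPKM in every library. Of 11 macrophage markers tested, 7 were higher and 2 lower by the same threshold. Their summed RPKM went from between 6682 and 8808 to between 14508 and 17667, or from between 3134 and 3794 to between 4665 and 5010 without the lysozyme gene Lyz2. Emr1 and Ptprc had no call, and Ptprc, the gene of CD45, was between 47.2 and 59.3 RPKM in the 6 libraries. In such bulk libraries fewer stromal cells and less RNA per stromal cell cannot be told apart.

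Each of the 10 laminin and linker genes was lower in the siRNA libraries than in the controls, with every siRNA library below every control library, although 6 of the 10 became higher when the libraries were centred on the median level of the stromal marker list and 10 when centred on the median change of these markers. The mean RPKM left after siRNA was between 18.9% (Nid2) and 58.9% (Lamc1) of the control mean. All 10 had an adjusted p under 0.05 from limma, fitted to log2(RPKM + 1) of the 13266 genes whose mean reached 0.1 RPKM, and 7 of them also fell by more than 2-fold on that scale. Among all genes tested, 29.8% were lower with an adjusted p under 0.05, 5.63% were lower by more than 2-fold as well, and 35.9% had siRNA values wholly below the control values. The centrings raised every gene by 1.80 (median level) or 2.09 (median change). In them 12815 or 13015 of the 13266 genes were higher with an adjusted p under 0.05. The median log2 fold change was -1.64 over the members, -2.12 over the stromal list and -0.09 over all genes tested. On the scale of log2(RPKM + 1) the change of genes near or below 1 RPKM is understated, so the ratio of the group means is given beside it.

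**Figure D1:**
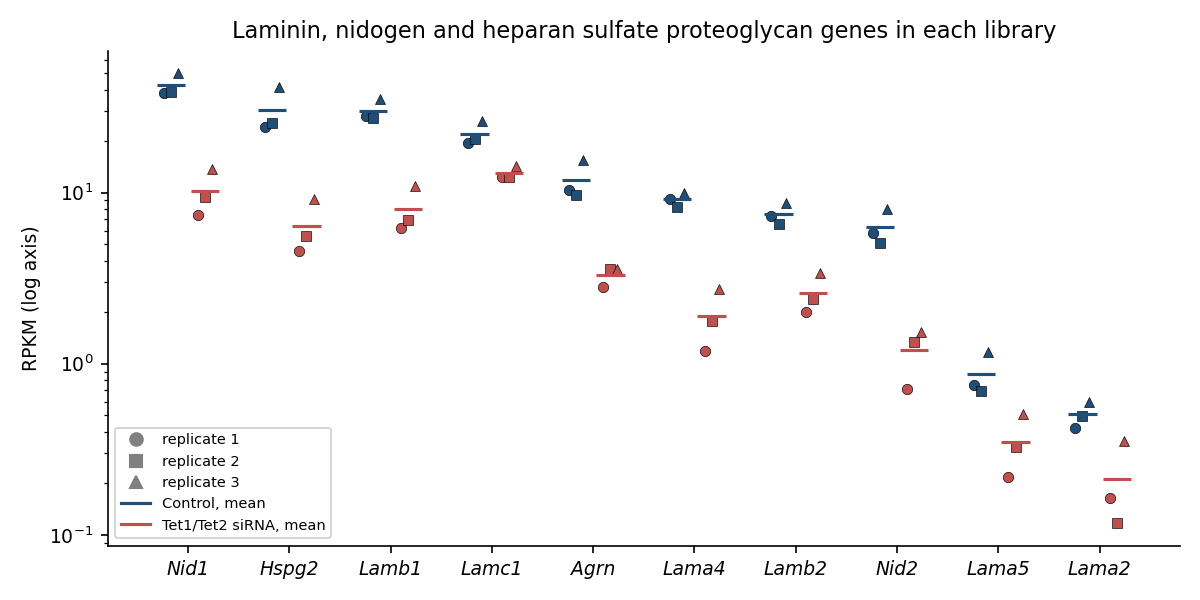
RPKM on a log axis of each laminin and linker gene in the 3 control (blue) and 3 Tet1/Tet2 siRNA (red) libraries. Points are libraries, with the replicate number as the marker shape, and horizontal lines are group means. For all 10 genes the siRNA points lie below the control points as deposited, and replicate 3 is the highest library of its group in each gene. Centring on the stromal marker list, which raises every gene, turns 6 (median level) or 10 (median change) of the 10 upward.

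The levels differed widely among the members. In the controls Nid1 had the highest mean, 42.3 RPKM, followed by Hspg2 with 30.3 and Lamb1 with 30.2, whose ranges overlapped. Lamc1 at 22.0 RPKM and Agrn at 11.9 RPKM came next, each below the range of the gene before it. The ranges of Agrn, Lama4, Lamb2 and Nid2 overlapped from each gene to the next, between 5.10 and 15.6 RPKM. Lama5 and Lama2 were the lowest, with means of 0.870 and 0.505 RPKM. After siRNA the order changed at the top, with Lamc1 moving from rank 4 to rank 1 at a mean of 13.0 RPKM and Nid1 second at 10.2 RPKM, although the ranges of these genes overlapped in the siRNA libraries. In each of the 3 siRNA libraries Lamc1 was above Nid1, and in each of the 3 control libraries it was below.

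The promoters of the 3 members with the highest control level are shown, chosen by that level alone, and shared control of these promoters was not tested. The sequences are the 250 bases before the RefSeq start on GRCm38.p6, read 5′ to 3′ on the strand of the gene, with GC boxes (GGGCGG) and CCAAT boxes (CCAAT) on either strand in capitals. The windows are chr13:13437352-13437601 for Nid1, chr12:31265043-31265292 for Lamb1 and chr4:137468553-137468802 for Hspg2, all on the plus strand.
Nid1: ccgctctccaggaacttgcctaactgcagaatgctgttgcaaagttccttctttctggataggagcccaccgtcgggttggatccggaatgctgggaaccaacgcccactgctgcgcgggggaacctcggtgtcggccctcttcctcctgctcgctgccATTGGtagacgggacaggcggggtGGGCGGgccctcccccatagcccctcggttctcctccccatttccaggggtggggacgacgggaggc
Lamb1: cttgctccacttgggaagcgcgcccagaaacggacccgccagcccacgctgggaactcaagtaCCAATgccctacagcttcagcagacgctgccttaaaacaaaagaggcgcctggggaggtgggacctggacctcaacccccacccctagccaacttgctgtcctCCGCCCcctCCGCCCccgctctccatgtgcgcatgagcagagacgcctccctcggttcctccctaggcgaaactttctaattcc
Hspg2: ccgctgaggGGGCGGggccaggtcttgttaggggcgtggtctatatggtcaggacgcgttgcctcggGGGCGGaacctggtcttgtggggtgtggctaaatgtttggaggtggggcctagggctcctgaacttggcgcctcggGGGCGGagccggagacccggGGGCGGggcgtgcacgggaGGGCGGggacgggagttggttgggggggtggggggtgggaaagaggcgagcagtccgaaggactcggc

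RefSeq windows were found for 7 of the 10 members, 8 windows in all, with a second start for Agrn. Lama4, Lamc1 and Nid2 had no entry in the table. The member windows held a median of 15 CpG and 63.2% GC, against 6 CpG and 52.4% GC in the median of all 32851 windows of the same length. CpG is the dinucleotide at which DNA is methylated and which TET enzymes act on. The members were far from uniform in it, from 35 CpG in the upstream window of Agrn, 20 in Hspg2, 19 in Lama5, 16 in Nid1 and 14 in Lamb1 to 8 in the second window of Agrn, 3 in Lamb2 and 0 in Lama2. The RefSeq starts are not always the outermost GENCODE starts. The Lama2 window (27616943 to 27617192) and the second Agrn window lay wholly inside the gene spans given below. Those of Lamb2 (108479612 to 108479861), Nid1, Lamb1 and Hspg2 ran past the starts of their spans. Low counts in Lama2 and Lamb2 thus need not describe their outermost promoters. GC boxes, a sequence bound by Sp1, stood in 6 of the 8 windows and in 32.7% of all windows. CCAAT boxes stood in 2 of the 8 and 33.8% of all. The TATA box (TATAAA), the AP-1 site (TGANTCA) and the RUNX core (TGTGGT), searched on both strands, stood in 0 of the 8 windows and in 12.4%, 6.75% and 14.0% of all windows. These matches describe the sequence only, and DNA methylation was not measured in these libraries.

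Among the alpha chains, Lama4 was the most abundant in the controls and had the largest decrease of the 3 members. Lama4, the alpha chain typical of endothelial and mesenchymal cells, lies on chromosome 10 of GRCm38 from 38965515 to 39110188, and was at 9.17, 8.25 and 10.0 RPKM in the controls and 1.18, 1.77 and 2.74 RPKM in the siRNA libraries. The lowest control was thus well above the highest siRNA library, and the log2 fold change was -1.84 (SE 0.18, limma adjusted p = 0.000112, Benjamini-Hochberg), a 4.83-fold difference of the group means. Lama5, the broadly expressed alpha chain of many basement membranes, lies on chromosome 2 from 180176373 to 180225859. Its values were 0.753, 0.689 and 1.17 RPKM in the controls and 0.217, 0.325 and 0.509 RPKM after siRNA. The groups did not overlap but came within 0.180 RPKM of each other, with a log2 fold change of -0.47 (SE 0.12, limma adjusted p = 0.0127) and a 2.48-fold difference of the means. Lama2, the alpha chain of muscle and nerve whose loss causes muscular dystrophy, lies on chromosome 10 from 26980036 to 27619758. It was at 0.422, 0.498 and 0.596 RPKM in the controls and 0.164, 0.117 and 0.352 RPKM after siRNA, or between about 43 and 186 reads. The control libraries lay above the siRNA libraries by 0.070 RPKM, and the log2 fold change of -0.32 (SE 0.09, limma adjusted p = 0.0197) was lost in 4 alternatives, with adjusted p = 0.104 after quantile normalization and 0.0531, 0.0697 and 0.079 without control replicate 2, siRNA replicate 1 and siRNA replicate 2. Lama5 reached adjusted p = 0.0502 from limma without siRNA replicate 1.

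The alpha chains outside the member list, Lama1 and Lama3, differed from each other. Lama3, the alpha chain of epithelial laminin, was at 1.54, 1.97 and 1.58 RPKM in the controls and 1.38, 1.54 and 2.20 RPKM after siRNA. The groups overlapped, and the log2 fold change was 0.00 (95% interval -0.29 to 0.28, adjusted p = 0.985 from limma). Lama1, the alpha chain of embryonic basement membranes, was at 0.338, 0.328 and 0.601 RPKM in the controls and 0.007, 0.007 and 0.04 RPKM after siRNA, about 103 to 185 reads against 3 to 14. These groups were far apart, although the log2 fold change on the scale with a pseudocount was only -0.48 (SE 0.08, limma adjusted p = 0.00215). As a share of the summed RPKM of the 5 alpha chains, Lama4 made up 72.4% ± 2.41 in the controls and 44.7% ± 4.04 after siRNA (SD, n = 3), while Lama3 made up 13.6% ± 2.85 and 41.8% ± 4.66 (SD, n = 3). The summed alpha chain RPKM was 12.6 ± 1.16 in the controls and 4.18 ± 1.49 after siRNA (SD, n = 3), so the larger share of Lama3 came with a level of Lama3 that overlapped between the groups. Lamb3, a beta chain of epithelial laminin, was at or under 0.097 RPKM in all 6 libraries. Lamc3, a gamma chain, was at the lowest listed value in 5 of the 6 libraries.

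The beta chains fell together, Lamb1 somewhat more than Lamb2. Lamb1, the beta chain of the most widespread laminins, lies on chromosome 12 from 31265234 to 31329644 and was at 28.0, 27.2 and 35.4 RPKM in the controls and 6.24, 6.91 and 10.9 RPKM in the siRNA libraries. Even the highest siRNA library was 16.3 RPKM below the lowest control, with a log2 fold change of -1.82 (SE 0.18, limma adjusted p = 0.000128) and a 3.77-fold difference of the means. Lamb2, the beta chain of the neuromuscular synapse and the kidney glomerulus, lies on chromosome 9 from 108479736 to 108490530. It was at 7.27, 6.58 and 8.69 RPKM in the controls and 2.01, 2.38 and 3.41 RPKM after siRNA. Its groups were also fully apart, with a log2 fold change of -1.25 (SE 0.16, limma adjusted p = 0.00035) and a 2.89-fold difference of the means.

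Lamc1 had the smallest proportional decrease of the 10 genes. Lamc1, on chromosome 1 from 153218922 to 153332786, was at 19.4, 20.5 and 26.2 RPKM in the controls and 12.3, 12.3 and 14.3 RPKM in the siRNA libraries. No siRNA library reached the lowest control, and the log2 fold change was -0.71 (SE 0.12, limma adjusted p = 0.00156), a 1.70-fold difference of the means. It was the only one of the 10 whose RPKM means differed by less than 2-fold.

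**Figure D2:**
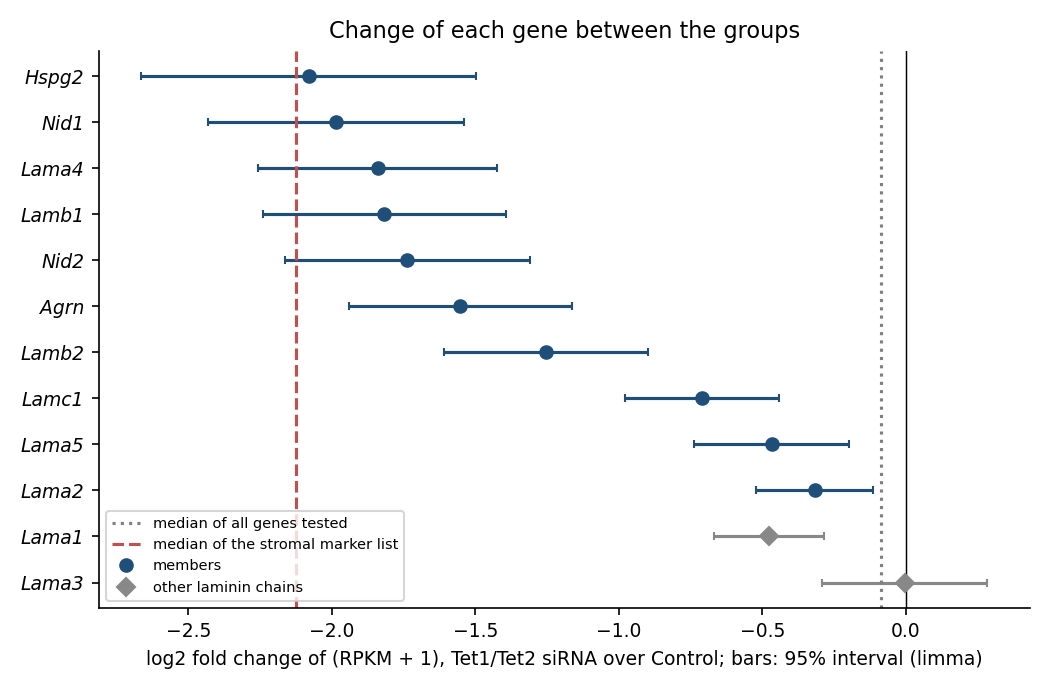
Log2 fold change of RPKM + 1, Tet1/Tet2 siRNA over control, for the 10 members (blue circles) and for Lama1 and Lama3 (grey diamonds), with 95% intervals from limma. The dotted line is the median of all genes tested (-0.09) and the dashed line the median of the stromal markers (-2.12). All members lie below 0 as deposited, and Lama3 lies at 0. Centring on the stromal list raises every gene, and 6 (median level) or 10 (median change) of the members then lie above 0.

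Both nidogens fell by more than 4-fold in mean RPKM. Nid1, the nidogen found in nearly all basement membranes, lies on chromosome 13 from 13437551 to 13512269 and was at 38.2, 38.9 and 49.9 RPKM in the controls and 7.37, 9.42 and 13.7 RPKM in the siRNA libraries. The groups were separated by 24.5 RPKM, with a log2 fold change of -1.98 (SE 0.19, limma adjusted p = 0.000107) and a 4.16-fold difference of the means. Nid2, its paralog, lies on chromosome 14 from 19751265 to 19811787. It was at 5.83, 5.10 and 8.08 RPKM in the controls and 0.713, 1.35 and 1.54 RPKM after siRNA, well apart, with a log2 fold change of -1.74 (SE 0.19, limma adjusted p = 0.000169). The 5.28-fold difference of its means was the largest among the members. Nid2 shares 8.45% of its annotated exonic bases with Rtraf on the opposite strand, and since use of strand is not given in the sources used here, reads in that stretch could belong to either gene.

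The proteoglycans also fell, with control replicate 3 well above the other controls. Hspg2, whose core protein perlecan carries heparan sulfate, lies on chromosome 4 from 137468769 to 137570630 and was at 24.1, 25.5 and 41.2 RPKM in the controls and 4.53, 5.59 and 9.16 RPKM after siRNA. Even the lowest control was 14.9 RPKM above the siRNA libraries. The log2 fold change was -2.08 (SE 0.25, limma adjusted p = 0.000326), a 4.71-fold difference of the means. Agrn, which clusters acetylcholine receptors at the neuromuscular junction and is also made by marrow stroma, lies on chromosome 4 from 156165290 to 156197488. It was at 10.3, 9.69 and 15.6 RPKM in the controls and 2.81, 3.57 and 3.58 RPKM after siRNA. The controls again lay wholly above the siRNA libraries, with a log2 fold change of -1.55 (SE 0.17, limma adjusted p = 0.000181) and a 3.58-fold difference of the means.

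Since RPKM is scaled by gene length, the balance between chains was compared as 8 ratios within each library. The members' alpha chains together amounted to 0.533, 0.461 and 0.449 of Lamc1 in the controls and 0.127, 0.179 and 0.252 of Lamc1 after siRNA, a difference of -1.42 in mean log2 ratio. Lama1 and Lama3 are not in that sum. Lama3 held 13.6% of the RPKM of the 5 alpha chains in the controls and 41.8% after siRNA. The fall of all 5 relative to Lamc1 is therefore smaller, and its size was not computed. The summed beta chains went from 1.82, 1.65 and 1.68 times Lamc1 to 0.668, 0.753 and 1.00 times Lamc1, a difference of -1.11. The beta chains thus exceeded Lamc1 in all 3 controls and in none (0) of the siRNA libraries, where replicate 3 stood level with it. Nidogens fell from between 2.15 and 2.27 times Lamc1 to between 0.655 and 1.07 times, a difference of -1.38 in mean log2 ratio. Within classes, Lama4 was 12.2, 12.0 and 8.57 times Lama5 in the controls and 5.44, 5.44 and 5.37 times Lama5 after siRNA, and Lamb1 was 3.85, 4.13 and 4.08 times Lamb2 in the controls and 3.11, 2.90 and 3.20 times after siRNA. Lama2 rose from between 0.046 and 0.0604 of Lama4 to between 0.0662 and 0.139. These 6 ratios did not overlap between the groups, each with p = 0.1 in the two-sided exact permutation test, the smallest value that 3 against 3 libraries can give, and an adjusted p of 0.133 over the 8 ratios. The ratios of Nid1 to Nid2 and of Hspg2 to Agrn overlapped between the groups (exact p = 0.2 for both).

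**Figure D3:**
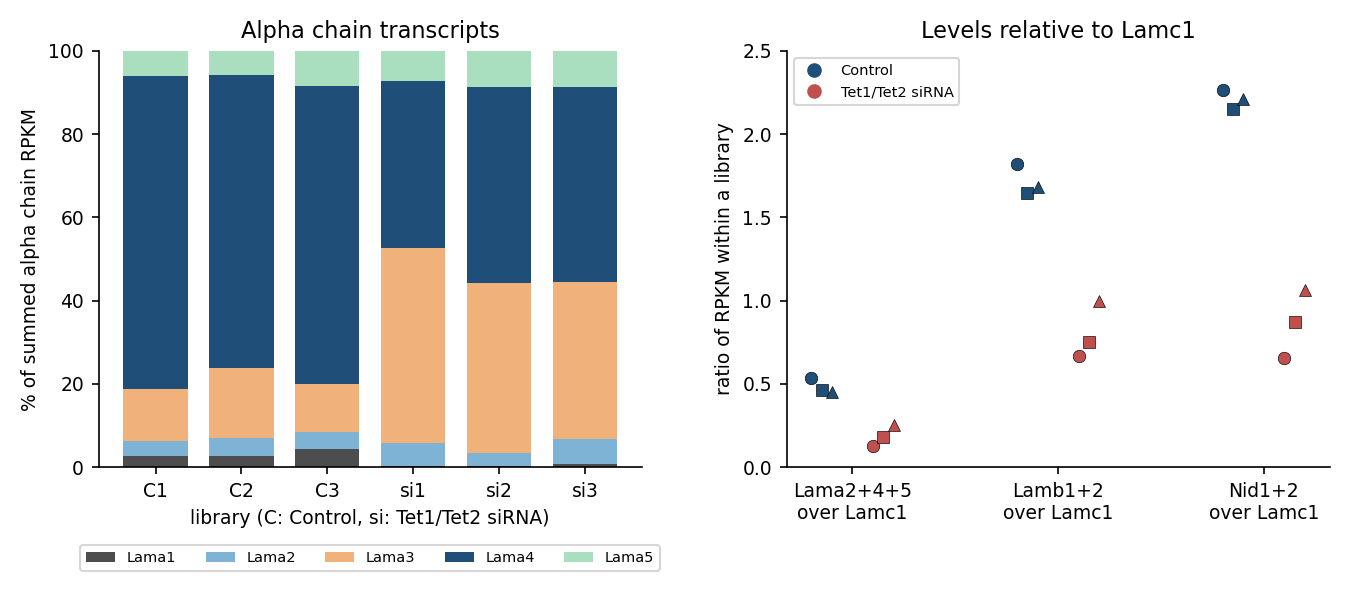
Left, the percent of the summed RPKM of the 5 laminin alpha chains held by each chain in each library (C, control; si, Tet1/Tet2 siRNA). Right, RPKM of the members' alpha chains, the beta chains and the nidogens relative to Lamc1 within each library (circle, square and triangle for replicates 1, 2 and 3). Lama4 holds 72.4% of the alpha chain RPKM in the controls and 44.7% after siRNA, and the beta chains drop from above Lamc1 to at or below it.

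The members rose and fell together across libraries of the same group. Control replicate 3 was the highest control in 10 of 10 members and siRNA replicate 3 the highest siRNA library in 10 of 10, while siRNA replicate 1 was the lowest in 9 of 10. The 18 stromal markers behaved alike, with 15 highest in control replicate 3 and 17 highest in siRNA replicate 3. Replicate 3 also had the lowest summed RPKM of its group, 393567 in the controls and 423889 after siRNA. How many of all genes tested were highest in replicate 3 was not counted. Relative to the control mean, the median member was at -2.17, -2.07 and -1.55 on the log2 scale in siRNA replicates 1, 2 and 3, and the median stromal marker at -2.86, -2.43 and -1.96, with macrophage markers at 0.21, 0.30 and 0.31. Without siRNA replicate 3, or without any other single library, the same number of members, 7, fell by more than 2-fold.

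Measured against the stromal markers, the direction of the members depended on how the markers were used. With each library centred on the median log2(RPKM + 0.01) of the stromal list, an alternative chosen after seeing the data, 6 members were higher and 4 lower after siRNA, with a median of 0.15, where the median of all genes was 1.91. In that fit 11934 of the 13266 genes tested were higher with an adjusted p under 0.05. Among the members Lamc1 alone passed, higher by 1.27 (adjusted p = 1.1e-05 from limma), and the other 9 lay between -0.41 (Nid2, adjusted p = 0.14) and 0.70 (Lama5, adjusted p = 0.0634). With a pseudocount of 1 in the same centring, the median member was at 0.15 and all genes at 1.71, and Lamc1 (1.09), Lamb2 (0.54), Lama5 (1.33) and Lama2 (1.48) were higher with an adjusted p under 0.05. So were 12815 of the 13266 genes. Centring instead on the median change of the 18 tested markers from their control mean, also chosen after seeing the data, put 10 members higher with a pseudocount of 1 (median 0.44, all genes 2.00) and 9 higher with a pseudocount of 0.01 (median 0.54, all genes 2.30), where Nid2 was at -0.02. Of these, 6 and 5 passed an adjusted p under 0.05, each of them higher, beside 13015 and 12285 of the 13266 genes that were higher. The part that the lower stromal and higher macrophage markers have in the decrease of the members was not tested.

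**Figure D4:**
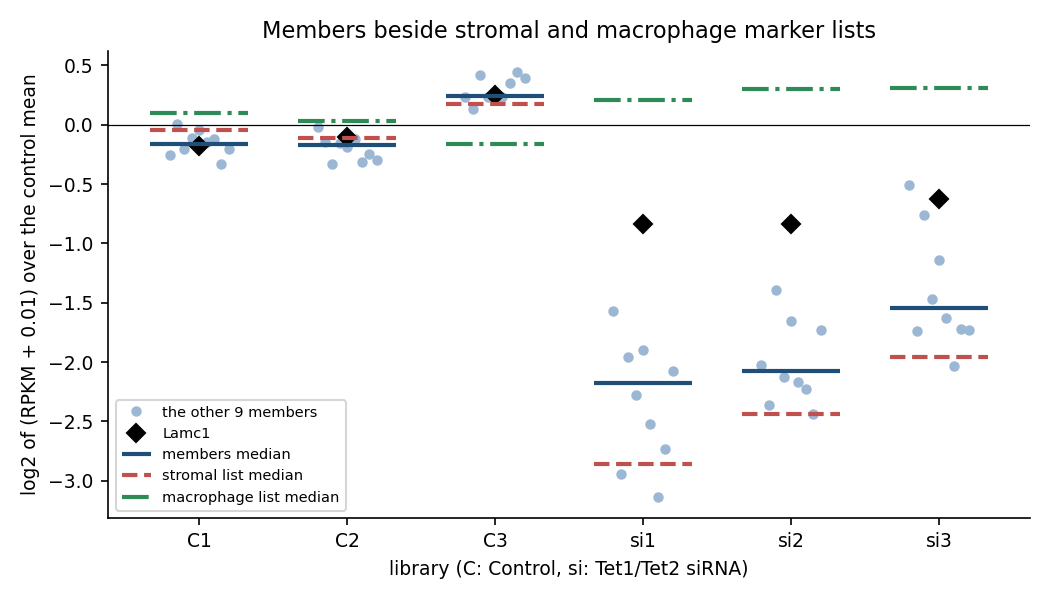
Log2 of RPKM + 0.01 relative to the control mean in each library (C, control; si, Tet1/Tet2 siRNA), with Lamc1 as black diamonds and the other 9 members as light points. Bars are the medians of the 10 members, of 18 stromal markers and of 11 macrophage markers. The member and stromal medians lie between -2.86 and -1.55 in the siRNA libraries, where the macrophage median lies between 0.21 and 0.31. Once centred on this median change of the stromal markers 9 of the 10 members turn upward, or 6 when centred on their median level, and both centrings raise every gene.

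Most laminin receptors tested were lower as deposited, and after centring on the median level of the stromal list 14 of them were higher and 1 lower with an adjusted p under 0.05. That centring raised every gene by 1.80, and 12815 of all 13266 genes tested were then higher and 115 lower with an adjusted p under 0.05. Of 19 listed genes 17 were tested, of which 12 were lower and 2 higher with an adjusted p under 0.05 and 3 did not pass (median log2 fold change -0.72). Among all genes tested, 44.5% passed in either direction as deposited, 29.8% lower and 14.7% higher. The largest decreases on the scale of log2(RPKM + 1) were those of Sdc2, a heparan sulfate carrying syndecan, from 37.1, 36.0 and 40.1 RPKM to 4.20, 6.25 and 8.46 RPKM (log2 fold change -2.45, adjusted p = 3.42e-05 from limma), Sgce (-1.87), a sarcoglycan, and Bcam (-1.57), a receptor for laminins containing Lama5. The higher genes encode laminin receptors, but other integrins of the list were lower as deposited. Itgb1 went from a mean of 383 RPKM in the controls to 273 RPKM after siRNA (log2 fold change -0.49, adjusted p = 0.00227 from limma). Itga3 went from 2.16 to 0.545 RPKM (-1.04, adjusted p = 0.000165) and Itga1 from 1.13 to 0.320 RPKM (-0.69, adjusted p = 0.000613), while Itga7 had no call. Itga6, the integrin alpha subunit of the classic laminin receptor, rose from 37.4, 40.8 and 42.4 RPKM to 54.7, 55.4 and 58.4 RPKM (log2 fold change 0.47, adjusted p = 0.000647 from limma). Dag1, the gene of dystroglycan, was at 18.5, 18.4 and 20.5 RPKM in the controls and 22.6, 22.8 and 24.9 RPKM after siRNA (log2 fold change 0.28, adjusted p = 0.0139 from limma), and its adjusted p was 0.0925 after scaling all libraries to 1 common sum, and it also lost the call without control replicate 2. For both genes every siRNA library lay above every control, the direction opposite to the laminins.

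Other basement membrane genes fell with the laminins, 12 of 15 tested being lower and 1 higher (median log2 fold change -1.19), whereas 10 were higher and 2 lower once centred on the stromal median level. Over all genes tested 29.8% were lower and 14.7% higher as deposited, and in that centring 12815 of the 13266 were higher and 115 lower. Col4a1 and Col4a2, the main chains of type IV collagen, went from 74.8, 72.4 and 99.5 RPKM to 9.50, 13.7 and 17.3 RPKM (log2 fold change -2.54, adjusted p = 3.82e-05 from limma) and from 51.2, 50.4 and 72.1 RPKM to 7.10, 9.79 and 13.3 RPKM (-2.43, adjusted p = 5.76e-05). Control replicate 3 and siRNA replicate 3 were again the highest of their groups. Sparc, a collagen-binding matricellular protein, fell by 2.13 on the log2 scale (adjusted p = 0.000112 from limma). Col18a1, the collagen with heparan sulfate chains from which endostatin is cut, was the exception and rose from 8.87, 8.45 and 10.6 RPKM to 13.0, 13.9 and 14.2 RPKM (log2 fold change 0.52, adjusted p = 0.00253 from limma). Its siRNA libraries all lay above the controls, opposite to Hspg2 and Agrn, which also carry heparan sulfate.

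The enzymes that build and edit heparan sulfate, the chains of Hspg2 and Agrn, changed less as a list. Of 26 listed genes 20 were tested, of which 9 were lower, 2 higher and 9 without a call (median log2 fold change -0.18), and centred on the stromal median level 18 were higher. The 11 called of 20 stand beside 44.5% over all genes tested, the 9 lower beside 29.8% and the 2 higher beside 14.7%. The 18 higher in the centred fit stand beside 12815 of all 13266 genes. Hs6st2, a sulfotransferase, had the largest decrease, from 3.70, 4.51 and 5.72 RPKM to 0.299, 0.462 and 0.787 RPKM (log2 fold change -1.89, adjusted p = 4.99e-05 from limma), followed by the sulfatase Sulf1 (-1.44) and the chain polymerase Ext1 (-1.18). Xylt1, which starts the chain, rose from 4.41, 5.03 and 6.81 RPKM to 11.3, 10.9 and 11.0 RPKM (log2 fold change 0.93, adjusted p = 0.000716 from limma). Sulf2, the paralog of Sulf1, rose by 0.46 on the log2 scale (adjusted p = 0.00125 from limma), opposite to Sulf1 as deposited, whereas Sulf1 (0.35) and Sulf2 (2.26) were both higher when centred on the stromal median level. That centring also turned Bcam (0.23) and Ext1 (0.62) upward.

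**Figure D5:**
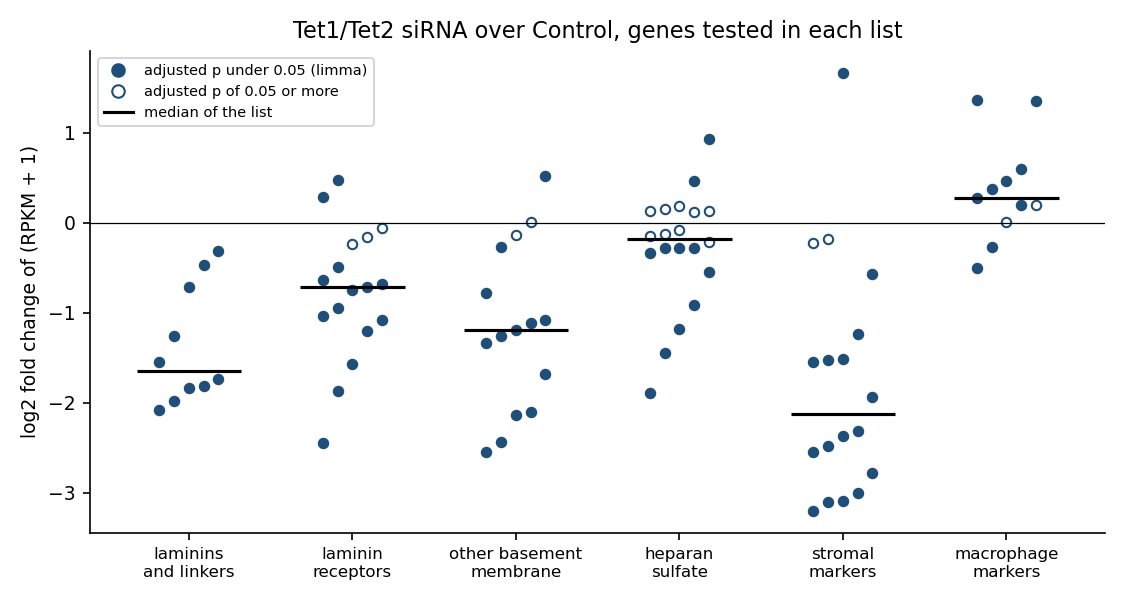
Log2 fold change of RPKM + 1, Tet1/Tet2 siRNA over control, of the genes tested in each list. Filled points have an adjusted p under 0.05 from limma, open points do not, and bars are list medians: -1.64 for the laminins and linkers, -0.72 for laminin receptors, -1.19 for other basement membrane genes, -0.18 for heparan sulfate enzymes, -2.12 for stromal and 0.27 for macrophage markers. Centred on the stromal list, which raises every gene, 6 (median level) or 10 (median change) of the 10 laminin and linker genes are higher.

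Markers of other cells that make basement membranes differed in level, and their part in these results was not tested. Calls here are an adjusted p under 0.05 from limma, which 29.8% of all genes tested passed as lower and 14.7% as higher. Of 8 endothelial genes, 5 were tested, of which 2 were lower and 2 higher. The summed RPKM of the 8 was between 4.28 and 5.04 in the controls and between 7.36 and 7.75 after siRNA. After siRNA most of that sum was Vwf, which rose from between 1.80 and 2.16 RPKM in the controls to between 5.98 and 6.28 RPKM. Without Vwf the sum went the other way, from between 2.45 and 2.88 RPKM to between 1.376 and 1.497 RPKM, and the lower genes were Kdr (log2 fold change -0.69, limma adjusted p = 0.00031), a VEGF receptor, and Emcn (-0.26, adjusted p = 0.0194). Pecam1 was the other higher gene (log2 fold change 0.23, limma adjusted p = 0.0272). It was at 0.231, 0.155 and 0.139 RPKM in the controls and 0.397, 0.294 and 0.439 RPKM after siRNA. In all 6 libraries Tek, Tie1 and Robo4 were at or below 0.047 RPKM. Of 6 smooth muscle and pericyte genes, 5 were tested and 4 were lower, led by Acta2, the smooth muscle actin also made by cultured stromal cells, which was between 735.4 and 849.4 RPKM in the controls and between 116.2 and 200.8 RPKM after siRNA. Of 5 Schwann cell genes 2 were tested and 1 (Mbp) was higher, with Sox10 at or below 0.022 RPKM in every library. None (0) of 5 epithelial genes reached the expression minimum, and Krt14 and Krt8 were at the lowest listed value throughout.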

How the data were processed

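RNA-seq was performed by the authors on total RNA of 3 control and 3 Tet1/Tet2 siRNA-treated BMMSC samples (NEBNext Ultra kit, paired-end reads). After adaptor trimming they used DNASTAR Lasergene for mapping to GRCm38 and for abundance. The deposited table holds linear RPKM per gene and library, named FPKM in the methods. The annotation, strand setting and treatment of multiply mapping reads are not given in the sources used here, so values of paralogs are uncertain. The table also holds p-values of the authors' own comparison of the groups, which were not used. Columns were matched to samples by their labels. The members, gene lists and motifs were chosen with earlier results of these data known.

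Of rows sharing a symbol, that of highest mean was used. Values were transformed as log2(RPKM + 1), and the 13266 genes whose mean reached 0.1 RPKM were tested with limma 3.58.1 in R 4.3.3 (eBayes with trend, two-sided, Benjamini-Hochberg adjustment), and a gene was called with an adjusted p under 0.05. The table holds no read totals. In Python 3.11.15 a depth was estimated for each library, namely the total that brings low RPKM of genes with 1 GENCODE M21 transcript nearest to whole reads. Between 53.5% and 57.7% of them lay within 0.1 of a whole read, so no count test was run. Reads per gene use the longest GENCODE M21 transcript, and positions come from the same annotation (GRCm38). The fit was tested on simulated libraries.

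The genes named are the 10 members, the targets, other laminin chains (1 is not reported here) and, for each of the 3 pathway lists (laminin receptors, other basement membrane, heparan sulfate), the 3 largest decreases and increases with an adjusted p under 0.05. Single marker genes and the integrins Itgb1, Itga3, Itga1 and Itga7 were named after their values were seen. The replicate numbers are shared between groups in the sample titles. Deviations from the group means correlated with r = 0.149, 0.117 and 0.462 between same-numbered libraries, each above 0.1, although control 1 with siRNA 2 (0.332) and control 2 with siRNA 1 (0.205) correlated more than their same-numbered pairs. By that limit of 0.1 they were also treated as pairs in a further fit, a pairing that rests on these values alone. Alternatives were other pseudocounts, filters, scalings and centrings, eBayes without trend, the replicate block, summed rows and each library left out in turn.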

Additional observations from a re-analysis of the deposited data

How the results depend on the processing

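Outside the centrings on the stromal list, the members kept their direction in all 158 values computed over the alternatives and lost an adjusted p under 0.05 in 5 of them, 4 for Lama2 and 1 for Lama5. Leaving out one replicate gave 8 to 10 members with an adjusted p under 0.05 and 7 to 7 over 2-fold. The mean of at least 1 RPKM removed Lama2 and Lama5. The replicate block, which pairs libraries by number, gave Lama2 a log2 fold change of -0.32 and adjusted p = 0.00861 from limma and changed no call of a member. The share of called genes that were lower was 66.9% as deposited, 74.2% after scaling to a common sum, 52.7% under median ratios and 42.4% after quantile normalization, which moved the median of all genes from -0.09 to 0.05.

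Centred on the stromal list, 4 members passed, all higher, 3 of them over 2-fold, and 1 and 1 with a pseudocount of 0.01. Log2 fold changes under this centring were 1.48 for Lama2, 1.33 for Lama5, 0.54 for Lamb2, 1.09 for Lamc1, 0.059 for Nid2, 0.24 for Agrn, 1.32 for Lama1 and 1.79 for Lama3, and with a pseudocount of 0.01 they were 0.68 for Lama2, 0.70 for Lama5, 0.081 for Lamb1, 0.47 for Lamb2, 1.27 for Lamc1, 0.22 for Agrn and 2.01 for Lama3. These centrings on the median level raised every gene by 1.80 and 2.03, and 12815 and 11934 of all 13266 genes were then called higher. Centring on the median change of the markers raised every gene by 2.09 and gave 6 members that passed, 3 of them over 2-fold, with 1.77 for Lama2, 0.24 for Lama4, 1.62 for Lama5, 0.27 for Lamb1, 0.83 for Lamb2, 1.37 for Lamc1, 0.10 for Nid1, 0.35 for Nid2, 0.0040 for Hspg2, 0.53 for Agrn, 1.61 for Lama1 and 2.08 for Lama3. With a pseudocount of 0.01 it raised them by 2.42 and gave 5 and 3, with 1.06 for Lama2, 0.072 for Lama4, 1.09 for Lama5, 0.47 for Lamb1, 0.86 for Lamb2, 1.66 for Lamc1, 0.32 for Nid1, 0.16 for Hspg2, 0.61 for Agrn and 2.40 for Lama3.

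Laminin receptors numbered 1 lower and 14 higher under the centring on the median level, 1 and 9 with the smaller pseudocount, 1 and 15 or 0 and 11 by the median change, and 1 higher after scaling to a common sum. Other basement membrane genes numbered 2 lower and 10 higher, 1 and 5 with the smaller pseudocount, and 1 and 11 or 0 and 7 by the median change, with 2 higher after quantile normalization. Heparan sulfate enzymes numbered 0 lower and 18 higher, 2 and 17 with the smaller pseudocount, and 0 and 19 or 2 and 17 by the median change, with 5 higher under median ratio scaling and 6 after quantile normalization. Over all 13266 genes the centring on the median level called 115 lower and 12815 higher, or 229 and 11934 with the smaller pseudocount. By the median change the numbers were 86 and 13015 or 133 and 12285. Without one replicate, 1 to 2 receptors were higher. The difference in log2 ratio of Nid1 to Nid2 was 0.35 and became -0.25 with 1 RPKM added to both genes. The 7 other ratios kept their sign, but that of the summed alpha chains to Lamc1 went from -1.42 to -0.61 and that of Lama2 to Lama4 from 0.95 to 1.52. Precision is limited by 3 libraries per group and, for Lama2 and Lama5, by low read numbers.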

Other observations

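Several low genes of the pathway lists changed more as a ratio of RPKM than their log2(RPKM + 1) values show, and were picked after their values were seen. Hs3st1, a heparan sulfate sulfotransferase, had control values of 0.869, 1.03 and 0.968 RPKM and siRNA values of 0.108, 0.015 and 0.001 RPKM, the last being the lowest listed value. Tinagl1, a secreted matrix glycoprotein, fell from 2.00, 1.45 and 2.22 RPKM to 0.282, 0.217 and 0.480 RPKM. Dmd, the gene of dystrophin, which joins dystroglycan to the cytoskeleton, was at 0.803, 0.618 and 1.44 RPKM in the controls and 0.128, 0.112 and 0.272 RPKM after siRNA. In all of these the siRNA libraries lay wholly below the controls, and each had an adjusted p under 0.05 from limma.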
